A study of Danio rerio with 12 samples.

Results

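Hearts of zebrafish aged 12 months were compared with hearts aged 6 months, the first interval of adult life in a series of hearts at 6, 12, 24 and 36 months. The comparison rests on 3 libraries labelled 12 months and 3 labelled 6 months, 6 of the 12 libraries of the series. Levels are given as fragments per kilobase, scaled by a factor for each library (FPKM). Genes were included when their mean over these 6 libraries was at least 1 FPKM, which left 16202 of the 50640 genes listed. Of these, 9847 were protein-coding genes, 383 long noncoding genes, 5757 loci without a gene name and 215 of other kinds. All fish were described as raised under standard conditions, and the groups differed by the labelled age. Sex, strain, time of collection, and whether a library held 1 heart or several were not given in the sources used here, so a p-value here reflects the spread among libraries and no more.

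The zebrafish heart has an atrium and a ventricle, whose cardiomyocytes contract by sliding actin and myosin filaments and are supplied with energy mainly by mitochondria. Between the cardiomyocytes lie endothelial cells, the smooth-muscle and pericyte (mural) cells of vessels and outflow tract, fibroblasts, epicardium, blood and resident immune cells. Zebrafish keep growing as adults and their cardiomyocytes retain the capacity to divide after injury.

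The libraries held between 9006181 and 11145869 reads in genes. The label of heart was borne out by cardiac markers, with the atrial natriuretic peptide gene nppa at 5542, 7022 and 5599 FPKM in 12-month and 4245, 4998 and 5074 FPKM in 6-month hearts. Several cell-type markers (cdh5, tie1, myh11a, hbaa1) were listed at 0 in all 6 libraries. Each of these overlaps an unnamed locus on the same strand, so that their zeros give no information on the cells. Genes overlapped in this way are called uncertain below. Mitochondrially encoded transcripts took 4.76%, 4.91% and 5.01% of reads in 12-month hearts, against 3.67%, 4.23% and 4.88% in 6-month hearts. Some mitochondrial genes are uncertain in this sense, so these shares may leave out mitochondrial reads. Haemoglobin genes took 0.385%, 0.350% and 0.446% of reads in 12-month hearts, against 0.415%, 0.134% and 0.164% in 6-month hearts. As hbaa1 was listed at 0, these shares may leave out haemoglobin reads. The part of blood content in the values of immune genes was not tested.

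A pair of libraries stood apart. In a principal component analysis of the 6 libraries, the first component (30.2% of the variance) placed 12-month replicates 1 and 2 at 32.7 and 44.5 and replicate 3 at -25.9, against 13.2, -42.7 and -21.8 for the 6-month libraries. The second component (29.8%) separated 6-month replicate 1, at 67.9, from the other libraries. The library closest to 12-month replicate 3 was 6-month replicate 2 (r = 0.944 across genes), while the closest to 6-month replicate 1 was 12-month replicate 3 (r = 0.915 across genes). Replicates 1 and 2 of 12 months were closest to each other, as were replicates 2 and 3 of 6 months. Gene families are therefore described with all 6 libraries and again without 6-month replicate 1. A share of members without overlap is set against the share of all genes tested, 6.12% higher and 6.91% lower with all libraries, and 13.2% higher and 16.1% lower without 6-month replicate 1. Leaving out 12-month replicate 3 removes the 12-month library most like the 6-month ones, so values without it describe a comparison made between more distant groups.

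**Figure D1:**
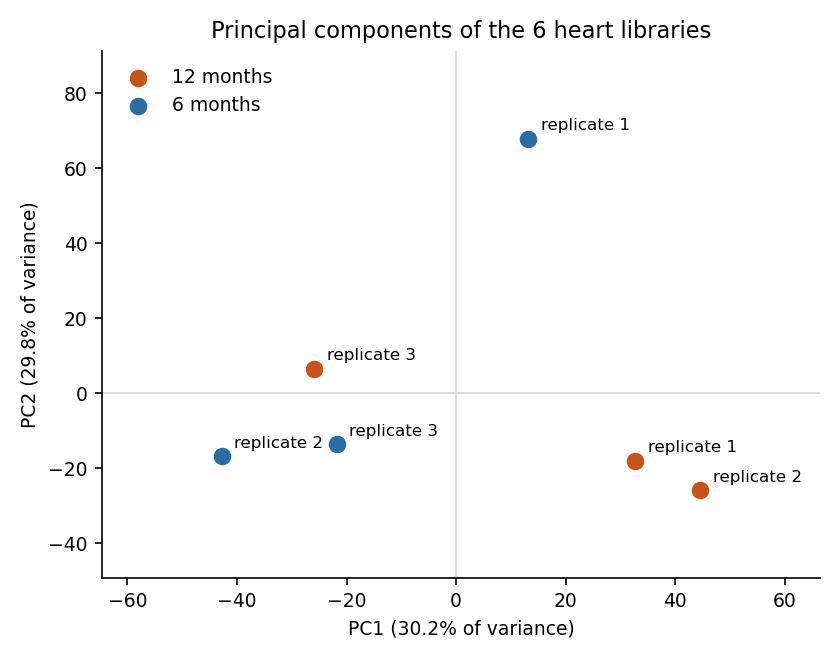
Principal component analysis of log2(FPKM + 1) in the 3 libraries of 12 months and the 3 of 6 months, with the first component (30.2% of variance) on the x axis and the second (29.8%) on the y axis. Replicate 1 of 6 months lies alone at 67.9 on the second component, and replicate 3 of 12 months lies at -25.9 on the first, among the 6-month libraries.

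Few single genes separated the ages. With limma on log2(FPKM + 1) and Benjamini-Hochberg adjustment over all 16202 genes, 3 genes passed an adjusted p of 0.05, which is 0.0185% of those tested: lmod1b and zpld1b fell and an unnamed locus on chromosome 1 rose. At an unadjusted p under 0.05, 749 genes were higher (4.62%) and 847 lower (5.23%). Values did not overlap between the 3 libraries of each age for 991 genes higher at 12 months (6.12%) and 1119 genes lower (6.91%). With 6-month replicate 1 left out, 1 gene passed (0.00617%), and 2137 genes were higher (13.2%) and 2608 lower (16.1%) without overlap between the 3 and the 2 libraries left. Without 12-month replicate 3, 58 genes passed (0.358%), of which 38 were higher and 20 lower. Of these 58, 27 were loci without a name, a class that made up 5757 of the 16202 genes tested. The median difference over all genes tested was -0.003 on the log2 scale.

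The gene lmod1b (ENSDARG00000077261, chromosome 11, 24651554 to 24657291, plus strand, GRCz11) encodes a leiomodin, whose mammalian counterpart nucleates actin filaments in smooth muscle. It stood at 9.68, 11.7 and 9.44 FPKM in 12-month hearts, against 23.8, 20.9 and 22.7 FPKM in 6-month hearts. All 3 libraries of 12 months lay below all 3 of 6 months, and the groups were far apart relative to their spread. It fell by 1.06 ± 0.13 on the log2 scale (SE; limma adjusted p = 0.0314). Levels of lmod1b averaged 19.6 ± 2.44 FPKM at 24 months and 14.3 ± 0.777 FPKM at 36 months (SD, n = 3 each), so the low level at 12 months was not shared by the 24-month hearts.

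The gene zpld1b (chromosome 15, 19847065 to 19858242, plus strand) encodes a protein with a zona pellucida-like domain, a module of secreted and membrane-anchored matrix proteins. It stood at 1.36, 1.60 and 1.58 FPKM at 12 months and 7.28, 5.88 and 4.71 FPKM at 6 months. The groups did not overlap, and the 12-month libraries were almost equal. It fell by 1.45 ± 0.18 on the log2 scale (SE; limma adjusted p = 0.0314), with 4.96 ± 1.01 FPKM at 24 months and 2.59 ± 0.439 FPKM at 36 months. The unnamed locus (chromosome 1, 52541859 to 52548288, minus strand), which the deposited table describes by a ribonuclease H domain and does not name, had 8.15, 8.89 and 6.91 FPKM in 12-month hearts and 1.76, 1.19 and 2.1 FPKM in 6-month hearts. It rose by 1.75 ± 0.20 (SE; limma adjusted p = 0.0314) without overlap, and averaged 1.21 ± 0.542 FPKM at 24 months and 3.34 ± 0.469 FPKM at 36 months. When 6-month replicate 1 was left out the differences of these genes were -1.02, -1.32 and 1.78 for lmod1b, zpld1b and the unnamed locus, each with a limma adjusted p of 0.0826.

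The 1 gene that passed without 6-month replicate 1 was has1, which encodes a hyaluronan synthase that makes the glycosaminoglycan of loose matrix. Its level was 3.53, 3.11 and 3.27 FPKM at 12 months, against 3.55, 12.4 and 12.5 FPKM at 6 months. Replicate 1 of 6 months sat with the 12-month libraries and the other 6-month libraries far above them. The difference was -1.12 ± 0.35 over all libraries (SE; limma adjusted p = 0.312) and -1.64 without that library (limma adjusted p = 0.0420). At 24 and 36 months has1 averaged 12.6 ± 1.63 and 13.1 ± 2.87 FPKM, close to 6-month replicates 2 and 3.

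Just short of the threshold were genes with clearly separated values, in both directions. The uncertain gene mylk4a had 26.4, 29.7 and 18.7 FPKM at 12 months and 9.02, 5.97 and 8.93 FPKM at 6 months. Its difference was 1.53 ± 0.22 (limma adjusted p = 0.0877). For pvrl3b values were 15.2, 17.2 and 14.8 FPKM at 12 months and 8.78, 6.76 and 8.24 FPKM at 6 months. The difference of pvrl3b was 0.91 ± 0.14 (limma adjusted p = 0.0882). The leptin receptor gene lepr, which signals energy stores, stood at 6.23, 6.98 and 9.84 FPKM at 12 months and 14.8, 15.6 and 16.3 FPKM at 6 months, a difference of -0.96 ± 0.16 (limma adjusted p = 0.0884). The metalloprotease gene adamts15a, which cleaves matrix proteoglycans, stood at 15.2, 18.2 and 12.1 FPKM at 12 months and 35.3, 28.7 and 35.3 FPKM at 6 months (-1.09 ± 0.18, limma adjusted p = 0.0884). Neither gene's groups overlapped. The sestrin gene sesn3, whose mammalian counterpart restrains growth signalling under nutrient shortage, had 16.9, 12.6 and 16.0 FPKM at 12 months and 26.3, 33.2 and 27.7 FPKM at 6 months (-0.90 ± 0.16, limma adjusted p = 0.0898).

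**Figure D2:**
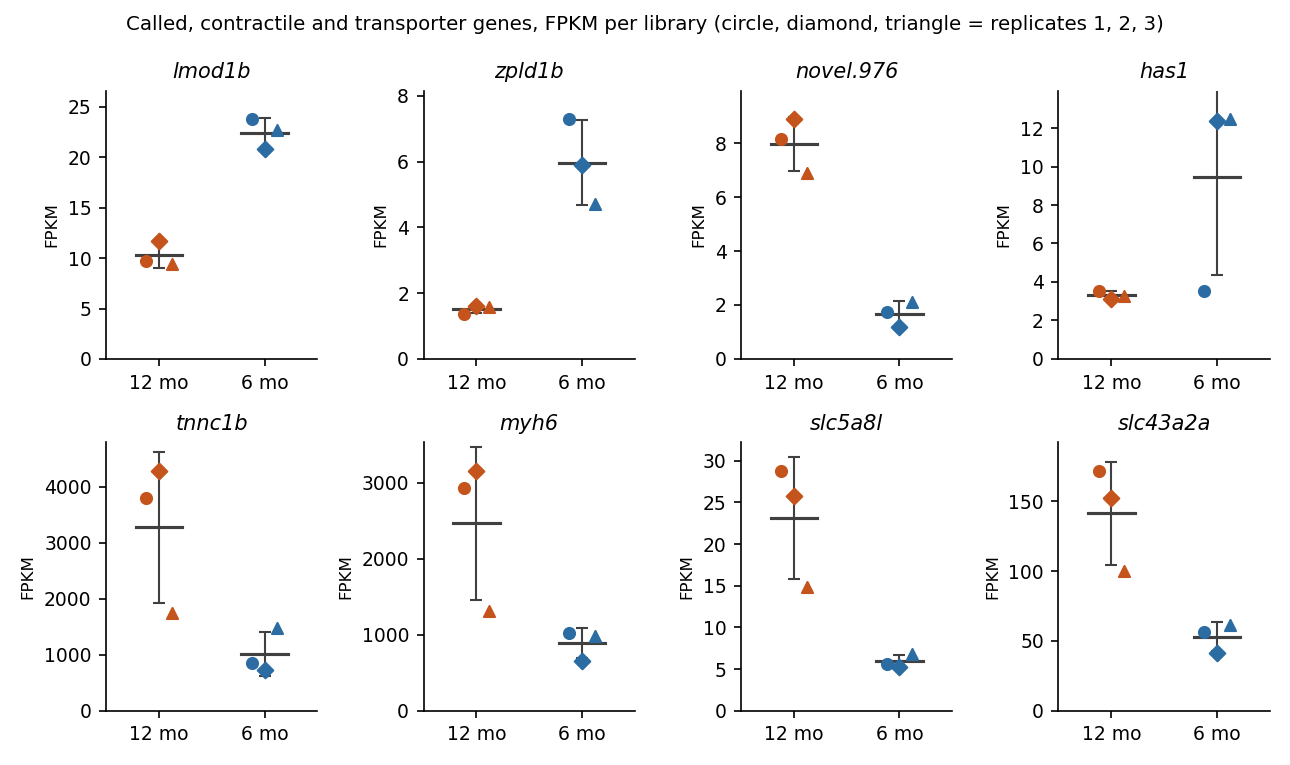
FPKM in each library for lmod1b, zpld1b, the unnamed locus of chromosome 1, has1, tnnc1b, myh6, slc5a8l and slc43a2a, with 12 months left of 6 months in each panel; symbols mark replicates, bars the mean and error bars the SD (n = 3). The groups are apart for lmod1b, zpld1b and the unnamed locus, replicate 1 of 6 months joins the 12-month libraries for has1, and replicate 3 of 12 months is the lowest of its group for tnnc1b and myh6.

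Immediate-early genes were lower at 12 months in most members. They encode transcription factors and their feedback regulators, are switched on within minutes by growth factors, stretch, stress and tissue handling, and decay again quickly. Of 93 listed, 66 were tested and none passed the adjusted threshold with limma, or with limma voom on recovered reads. Before adjustment, p was under 0.05 for 27 lower and 2 higher members (against 5.23% lower and 4.62% higher of all genes). Values did not overlap for 27 lower members (40.9%, against 6.91% of all genes tested) and 2 higher members (3.03%, against 6.12%). Over the 5 libraries without 6-month replicate 1 they were separate for 39 lower members (59.09%, against 16.1%) and 4 higher members (6.06%, against 13.2%). The median difference was -0.57, against -0.003 over all genes, and 54 of 66 differences were negative. It was -0.58 without 6-month replicate 1 and -0.51 without 12-month replicate 3.

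The AP-1 factors, dimers of Fos, Jun and related proteins, carried much of this. Of 13 listed, 11 were tested, and 9 were lower (81.8%, against 6.91%) and 0 higher (against 6.12%) without overlap. The median difference was -0.70. Without 6-month replicate 1, 10 were lower (90.9%, against 16.1%), and the median was -0.83. The Fos gene fosab (chromosome 20, 46648591 to 46650720) stood at 10.8, 13.8 and 11.1 FPKM in 12-month hearts, against 89.1, 78.0 and 44.2 FPKM in 6-month hearts. Its 6-month libraries differed among themselves while its 12-month libraries were close together, and the difference was -2.42 ± 0.43 (SE; limma adjusted p = 0.0898). Its neighbour on the chromosome, jdp2b (46682958 to 46691222), encodes a Jun dimerization protein, which in mammals represses AP-1 sites. It had 4.14, 3.26 and 3.26 FPKM at 12 months and 13.2, 22.3 and 10.6 FPKM at 6 months, a difference of -1.79 ± 0.30 (limma adjusted p = 0.0884).

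The paralog jdp2a had a smaller difference of -0.52 ± 0.14, with 4.29, 4.68 and 4.21 FPKM at 12 months and 7.41, 5.79 and 7.04 FPKM at 6 months. Among the Jun genes, jun stood at 214, 193 and 200 FPKM in 12-month hearts and 310, 390 and 293 FPKM in 6-month hearts (-0.70 ± 0.19). The stress factor gene atf3 stood at 152, 176 and 226 FPKM at 12 months and 227, 353 and 297 FPKM at 6 months (-0.66). In both genes every 12-month library lay below every 6-month library, with atf3 of 12-month replicate 3 nearly touching 6-month replicate 1. The exception by overlap was jund, at 156, 94.0 and 129 FPKM at 12 months and 90.9, 348 and 232 FPKM at 6 months, where 6-month replicate 1 was the lowest of all. The difference of jund was -0.65, and -1.19 without that library. The exception by direction was fosl1b, whose difference was 0.37, and 0.58 without 6-month replicate 1.

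The zinc-finger factor gene egr1 had 19.8, 21.3 and 12.9 FPKM at 12 months and 102, 82.5 and 58.5 FPKM at 6 months, a difference of -2.1 ± 0.49 (limma adjusted p = 0.192). The orphan nuclear receptor gene nr4a1 had 118, 90.4 and 57.8 FPKM at 12 months and 112, 307 and 230 FPKM at 6 months. Only 6-month replicate 1 lay within the 12-month range, and the difference of nr4a1 was -1.22 with that library and -1.63 without it. All 9 tested genes of the ier, gadd45 and btg groups, which include growth-arrest and early-response genes, had negative differences with all libraries. Without 12-month replicate 3, 7 were negative, while gadd45ba (0.11) and gadd45ga (0.44) were positive. Of the 9, 5 did not overlap with all libraries (55.6%, against 6.91% of all genes), and 6 without 6-month replicate 1 (66.7%, against 16.1%). In ier2a, values were 32.6, 46.7 and 32.7 FPKM at 12 months and 165, 88.7 and 68.1 FPKM at 6 months. The antiproliferative gene btg2, an uncertain gene, had 9.01, 2.71 and 3.39 FPKM at 12 months and 11.1, 25.2 and 18.2 FPKM at 6 months (-1.74 ± 0.38, limma adjusted p = 0.158). Higher at 12 months were trib1, a pseudokinase gene, at 26.7, 42.0 and 16.4 FPKM against 6.35, 15.8 and 15.4 FPKM at 6 months. Its difference was 1.117, and 0.73 without 6-month replicate 1. The cAMP-responsive factor gene cremb was also higher (0.75).

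**Figure D3:**
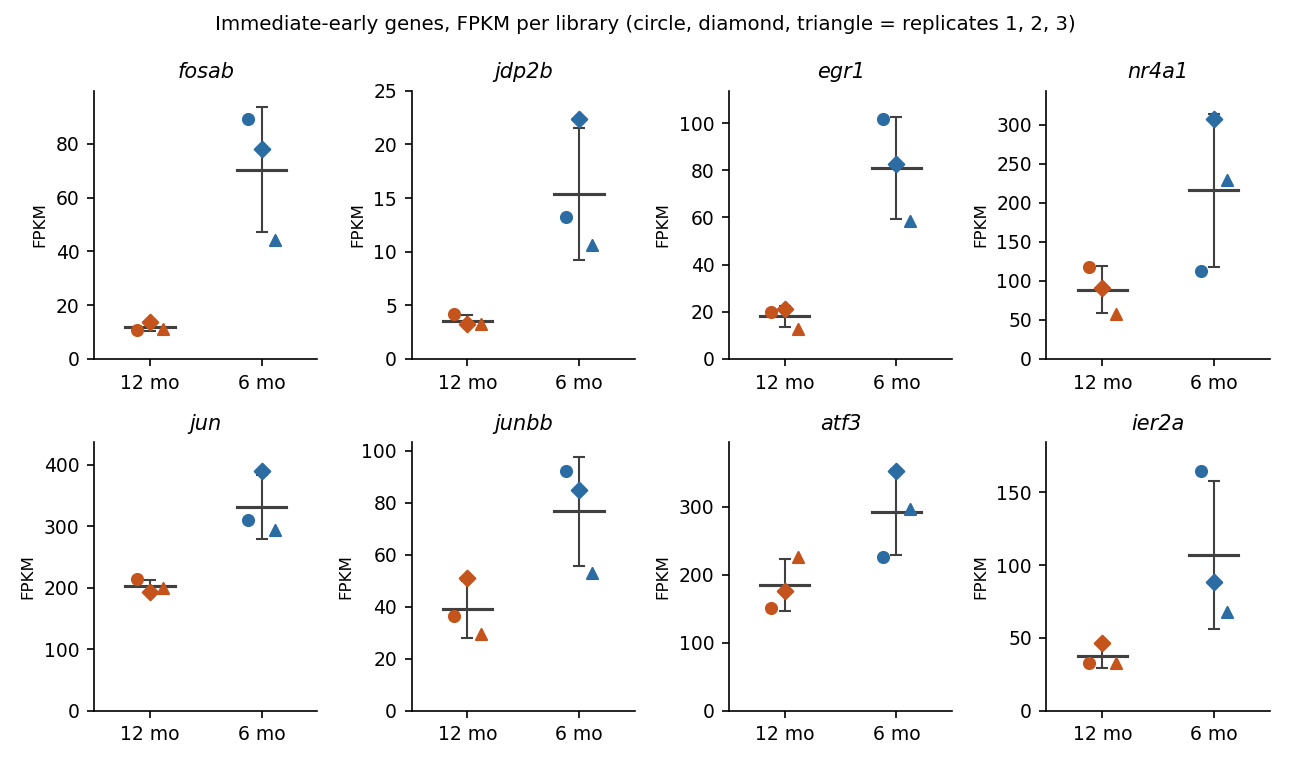
FPKM in each library for fosab, jdp2b, egr1, nr4a1, jun, junbb, atf3 and ier2a, with 12 months left of 6 months; symbols mark replicates, bars the mean and error bars the SD (n = 3). Every 12-month library lies below every 6-month library except in nr4a1, where 6-month replicate 1 (112 FPKM) lies within the 12-month range.

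Across the whole series the family's median deviation from its mean over the 6 libraries was 0.18, 0.44 and 0.14 at 6 months, -0.13, -0.22 and -0.39 at 12 months, -0.18, 0.12 and -0.26 at 24 months and -0.36, -0.67 and -0.43 at 36 months, on the log2 scale. The 12-month libraries thus lay below all 6-month libraries and within or near the range of the 24-month ones. For fosab the averages were 70.4 ± 23.4 FPKM at 6 months, 11.9 ± 1.66 at 12 months, 23.2 ± 17.9 at 24 months and 7.53 ± 2.41 at 36 months (SD, n = 3 each). Time of day, handling and interval from dissection to lysis were not given in the sources used here, and their part in these values was not tested.

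Vessel-wall genes were lower in part. Of 44 mural genes listed, 18 were tested, 7 were lower without overlap (38.9%, against 6.91%) and 0 higher (against 6.12%), with a median difference of -0.29 that was -0.30 without 6-month replicate 1 and -0.23 without 12-month replicate 3. In RNA from whole hearts, fewer cells of a type and less RNA per cell cannot be told apart. Beside lmod1b, the forkhead factor gene foxc1b, which acts in vessel and outflow tract development, stood at 23.1, 23.8 and 23.0 FPKM in 12-month and 48.6, 30.3 and 36.1 FPKM in 6-month hearts (-0.67 ± 0.15, limma adjusted p = 0.172). The hyaluronan-binding inhibitor gene itih1 stood at 64.9, 75.7 and 45.8 FPKM at 12 months and 119, 109 and 219 FPKM at 6 months (-1.21 ± 0.29, limma adjusted p = 0.198). Both were separate between the ages.

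The pericyte gene rgs5a, an uncertain gene that encodes a regulator of G-protein signalling, had 191, 241 and 257 FPKM at 12 months and 352, 346 and 533 FPKM at 6 months (-0.82). Other defining mural genes did not separate. The smooth-muscle gene tagln had 511, 631 and 220 FPKM at 12 months against 517, 430 and 446 FPKM at 6 months. The receptor gene PDGFRB had 6.21, 5.40 and 6.17 FPKM at 12 months against 5.67, 5.50 and 4.81 FPKM at 6 months. The list's members that were lower therefore did not include every marker of the cell type.

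Of 84 endothelial genes listed, 50 were tested, and 7 were lower (14.0%, against 6.91%) and 4 higher (8.0%, against 6.12%) without overlap, with a median of -0.15. After removal of 6-month replicate 1, 18 were lower (36.0%, against 16.1%) and 9 higher (18%, against 13.2%), with a median of -0.23. The arteriovenous signalling pair ephb4b and efnb2a, a receptor and a ligand of neighbouring endothelial cells, were both lower. For ephb4b values were 13.1, 13.6 and 13.1 FPKM at 12 months and 20.3, 17.1 and 20.8 FPKM at 6 months (-0.51). For efnb2a they were 6.34, 5.85 and 7.12 FPKM at 12 months and 11.3, 8.04 and 10.1 FPKM at 6 months (-0.53). The Notch ligand gene jag1b was also lower (-0.89), with 3.45, 2.44 and 2.05 FPKM at 12 months and 6.24, 6.26 and 4.67 FPKM at 6 months. Among the higher members, the lymphatic hyaluronan receptor gene lyve1a had 25.1, 19.3 and 21.9 FPKM at 12 months and 6.17, 16.0 and 10.4 FPKM at 6 months (1.05). The guanine nucleotide exchange factor gene rasgrp3 had 7.17, 11.7 and 11.2 FPKM at 12 months and 3.54, 6.34 and 6.93 FPKM at 6 months (0.75). Both were separate, and without 6-month replicate 1 their differences were 0.73 for lyve1a and 0.50 for rasgrp3. The general endothelial receptor gene kdrl overlapped, at 96.6, 112 and 93.6 FPKM at 12 months and 67.5, 118 and 121 FPKM at 6 months.

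Contractile genes included members that were separate in either direction. Of 76 sarcomere genes listed, 30 were tested, and 2 were higher (6.67%, against 6.12%) and 4 lower (13.3%, against 6.91%) without overlap, so the higher share was near that of all genes. The median difference was -0.05, and -0.16 without 6-month replicate 1 and -0.15 without 12-month replicate 3. Without 6-month replicate 1, 5 were higher (16.7%, against 13.2%) and 7 lower (23.3%, against 16.1%). The troponin C gene tnnc1b, which encodes a calcium sensor of the thin filament, had 3802, 4277 and 1735 FPKM at 12 months and 855, 720 and 1467 FPKM at 6 months, a difference of 1.65 ± 0.36 (limma adjusted p = 0.156). The atrial myosin heavy chain gene myh6 had 2924, 3153 and 1312 FPKM at 12 months and 1020, 658 and 981 FPKM at 6 months, a difference of 1.40 ± 0.36 (limma adjusted p = 0.234). In both, 12-month replicate 3 lay just above the 6-month libraries, and without it the differences were 2.06 (limma adjusted p = 0.0335) and 1.8 (limma adjusted p = 0.0543). In zebrafish myh6 marks the atrium. The share of atrium in each sample was not given in the sources used here, so its part in the values of myh6 and tnnc1b was not tested.

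Lower at 12 months were the troponin I gene tnni4a, at 333, 381 and 412 FPKM against 423, 637 and 564 FPKM at 6 months (-0.51), and the myosin light chain gene myl4, at 0.685, 0.947 and 1.32 FPKM against 2.62, 1.81 and 2.42 FPKM at 6 months (-0.73). Each was separate between the ages. The calcium pump gene atp2a2a, which refills the sarcoplasmic reticulum after each beat, had 2009, 2230 and 1618 FPKM at 12 months and 977, 1299 and 1401 FPKM at 6 months (0.68 ± 0.17, limma adjusted p = 0.223). Its paralog atp2a2b had 33.4, 37.5 and 32.9 FPKM at 12 months and 23.5, 28 and 30.6 FPKM at 6 months (0.33). Neither paralog overlapped between the ages. Of the 22 tested genes of calcium handling and conduction, 3 were higher (13.6%, against 6.12%) and 1 lower (4.55%, against 6.91%) without overlap. Their median was 0.02 with all libraries, -0.01 under another scaling and -0.15 without 6-month replicate 1, when 6 of 22 differences were positive.

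Of the 7 natriuretic genes tested, 3 were higher (42.9%, against 6.12%) and 1 lower (14.3%, against 6.91%) without overlap, and these counts were equal without 6-month replicate 1. Their median was 0.10, and 0.25 without that library. The clearance receptor gene npr3, which removes natriuretic peptides, had 20.5, 31.6 and 17.8 FPKM at 12 months and 10.5, 10.6 and 14.8 FPKM at 6 months (0.88 ± 0.22, limma adjusted p = 0.203), and nppa had a difference of 0.34. Of the 23 cardiac transcription factors tested, 2 were higher (8.70%, against 6.12%) and 3 lower (13.04%, against 6.91%) without overlap, with a median of -0.04. With 6-month replicate 1 left out, 7 were higher (30.4%, against 13.2%) and 4 lower (17.4%, against 16.1%), and the median was 0.09. The homeobox gene nkx2.5, a core cardiac factor, had 123.03, 130 and 126 FPKM at 12 months and 156, 158 and 169 FPKM at 6 months (-0.35, limma adjusted p = 0.320). The gene meis2b, a marker of an atrial compartment in zebrafish, was 1 of the 2 members higher without overlap over all libraries. It had 6.31, 5.72 and 5.46 FPKM at 12 months and 2.49, 3.35 and 3.92 FPKM at 6 months (0.70). As with myh6, the part of the share of atrium in the meis2b values was not tested. The values of meis2b alone do not show a direction shared by the atrial genes of the list. The Iroquois gene irx1a was lower, at 10.3, 12.2 and 16.6 FPKM at 12 months against 111, 43.3 and 18.3 FPKM at 6 months (-1.73), with 12-month replicate 3 near 6-month replicate 3. When 6-month replicate 1 was left out, its highest library, the difference of irx1a was -1.08.

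The direction of energy metabolism depended on 6-month replicate 1. For the 72 tested nuclear genes of oxidative phosphorylation, the respiratory chain and ATP synthase, the median difference was 0.01 with all libraries, and 0 members were separate in either direction (against 6.12% higher and 6.91% lower). Without that library the median was -0.21 and 41 members were lower without overlap (56.9%, against 16.1% of all genes). Their median deviation was 0.04, 0.09 and -0.09 in 12-month hearts, against -0.45, 0.20 and 0.24 in 6-month hearts. The 34 glycolysis genes had medians of -0.0001 and -0.22 with and without that library, and the 34 genes of the citric acid cycle -0.01 and -0.18. The sign of the medians near 0 for oxidative phosphorylation and the citric acid cycle turned under another scaling. The glycolytic enzyme gene gapdh shows the pattern, with 19987, 22596 and 17938 FPKM at 12 months and 6766, 21917 and 21518 FPKM at 6 months. The creatine kinase gene ckma, which buffers ATP in muscle, had 2650, 3672 and 2952 FPKM at 12 months and 970, 4762 and 4080 FPKM at 6 months.

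Of the 8 tested protein-coding genes of the mitochondrial genome, 5 are uncertain genes. All 8 had positive differences with all libraries, and 4 were higher without overlap (50%, against 6.12% of all genes). The separate genes were mt-nd1 and the uncertain genes mt-atp6, mt-nd4 and mt-nd3. Over the 5 libraries without 6-month replicate 1, 6 of the 8 were positive and 4 were separate (against 13.2%). The median was 0.29 with all libraries, 0.14 without 6-month replicate 1 and 0.08 at the lowest of the other scalings. For mt-nd1, a subunit of respiratory complex I, values were 5779, 5821 and 6193 FPKM at 12 months and 3825, 4935 and 5641 FPKM at 6 months. Its difference was 0.32, and 0.17 without 6-month replicate 1. The 47 fatty acid oxidation genes had a median of 0.01, and -0.12 without 6-month replicate 1.

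Of 51 cholesterol genes listed, 37 were tested, and 5 were higher (13.5%, against 6.12%) and 1 lower (2.703%, against 6.91%) without overlap, with a median of 0.07. After removal of 6-month replicate 1, 7 were higher (18.9%, against 13.2%) and 5 lower (13.5%, against 16.1%), and the median was 0.12. The sterol sensor gene insig1, which retains sterol-regulatory factors in the endoplasmic reticulum, had 10.04, 10.4 and 11.2 FPKM at 12 months and 5.86, 3.73 and 5.95 FPKM at 6 months (0.92 ± 0.19, limma adjusted p = 0.147). The lipoprotein receptor gene ldlra had 5.42, 8.37 and 4.02 FPKM at 12 months and 1.11, 0.357 and 2.42 FPKM at 6 months (1.65 ± 0.35, limma adjusted p = 0.148). Both were separate, as was the paralog ldlrb (1.06), at 2.34, 3.46 and 2.81 FPKM at 12 months and 0.762, 0.348 and 1.66 FPKM at 6 months. The synthesis enzyme gene dhcr7 was lower (-0.42). Outside sterols, the long-chain fatty acid ligase gene acsl4b had 21.8, 33.1 and 27.3 FPKM at 12 months and 6.32, 11.4 and 10.23 FPKM at 6 months, a difference of 1.48 ± 0.25 (limma adjusted p = 0.0884). The phosphatidate phosphatase gene lpin1 had 78.0, 121 and 55.3 FPKM at 12 months and 18.8, 49.3 and 40.2 FPKM at 6 months (1.24).

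Solute carriers, a large family of membrane transporters, had more members higher than lower among those without overlap. Of 338 listed, 143 were tested. Their differences were split almost evenly, with 73 positive (51.05%, against 49.6% of all genes) and 70 negative. The p before adjustment was under 0.05 for 14 higher (against 4.62% of all genes) and 2 lower members (against 5.23%). Without overlap, 17 were higher (11.9%, against 6.12%) and 5 lower (3.50%, against 6.91%). The median over the tested members was 0.02, and -0.006 under another scaling. Without 6-month replicate 1, 37 were higher (25.9%, against 13.2%) and 16 lower (11.2%, against 16.1%), and the median was 0.09. The monocarboxylate carrier gene slc5a8l had 28.8, 25.8 and 14.8 FPKM at 12 months and 5.62, 5.29 and 6.80 FPKM at 6 months, a difference of 1.76 ± 0.28 (limma adjusted p = 0.0882). The amino acid carrier gene slc43a2a had 172, 152 and 100 FPKM at 12 months and 56.0, 41.5 and 61.5 FPKM at 6 months, a difference of 1.38 ± 0.24 (limma adjusted p = 0.0898). Both had their lowest 12-month value in replicate 3, and without it passed with differences of 2.04 (limma adjusted p = 0.0235) and 1.61 (limma adjusted p = 0.0305).

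The anion exchanger gene slc26a4 had 3.63, 4.36 and 0.996 FPKM at 12 months and 0.128, 0.163 and 0.364 FPKM at 6 months (1.60 ± 0.36, limma adjusted p = 0.172). Only 12-month replicates 1 and 2 exceeded 1 FPKM, so slc26a4 met the filter through the group where it was high. The amino acid carriers slc1a5 (0.53) and slc7a8a (0.69) were higher as well, with slc1a5 at 23.3, 25.1 and 21.0 FPKM at 12 months and 15.7, 17.1 and 14.4 FPKM at 6 months. Among 15 tested genes of arginine and the urea cycle, 13 had positive differences and the median was 0.19. With 6-month replicate 1 left out, 10 were positive and the median was 0.23. The mitochondrial arginase gene arg2 had 318, 355 and 267 FPKM at 12 months and 90.4, 208 and 119 FPKM at 6 months (1.24 ± 0.28, limma adjusted p = 0.172).

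Genes of hormone and nutrient signalling included separated members in both directions. Insulin-like growth factor and insulin signalling inhibits forkhead box O factors, which switch on genes of fasting and stress resistance. Of the 53 tested genes of this pathway, 8 were higher (15.09%, against 6.12%) and 2 lower (3.77%, against 6.91%) without overlap, with a median of 0.03. When 6-month replicate 1 was left out, 11 were higher (20.8%, against 13.2%) and 10 lower (18.9%, against 16.1%), with a median of 0.02. The factor gene foxo1a had 15.12, 25.4 and 16.9 FPKM at 12 months and 12.8, 7.33 and 6.84 FPKM at 6 months (1.03 ± 0.25, limma adjusted p = 0.203). The factor gene foxo3b, an uncertain gene, had 13.7, 17.8 and 13.5 FPKM at 12 months and 3.77, 5.87 and 7.50 FPKM at 6 months (1.28). The growth factor binding protein gene igfbp2a had 50.8, 44.4 and 32.5 FPKM at 12 months and 19.1, 1.18 and 15.0 FPKM at 6 months (2.27 ± 0.69, limma adjusted p = 0.295). All of these were separate. The lower members were the Kruppel-like factor gene klf15 (-0.62), at 6.06, 6.12 and 7.87 FPKM at 12 months and 10.5, 11.4 and 10.19 FPKM at 6 months, and prkab1b (-0.32), a regulatory subunit gene of the energy-sensing AMP-activated kinase.

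Of 32 tested glucocorticoid-responsive genes, 7 were higher (21.9%, against 6.12%) and 1 lower (3.13%, against 6.91%) without overlap, and the median was 0.25. Over the 5 libraries without 6-month replicate 1, 11 were higher (34.4%, against 13.2%) and 4 lower (12.5%, against 16.1%), and the median was 0.27. Of 34 clock genes tested, 4 were higher (11.8%, against 6.12%) and 1 lower (2.94%, against 6.91%), with a median of 0.08. After removal of 6-month replicate 1, 6 were higher (17.6%, against 13.2%) and 6 lower (17.6%, against 16.1%), and the median was -0.07. The repressor gene nr1d1, an arm of the circadian loop, had 36.9, 31.3 and 25.6 FPKM at 12 months and 93.8, 57.7 and 49.9 FPKM at 6 months (-1.04 ± 0.25, limma adjusted p = 0.203). The cryptochrome gene cry1ab had 26.1, 31.5 and 25.3 FPKM at 12 months and 15.0, 20.7 and 19.2 FPKM at 6 months (0.58). Circadian levels follow the time of collection, whose part was not tested.

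Protein turnover lists had small median differences, while single members differed by more, up to 1.35 among proteasome genes and down to -1.96 among chaperone genes. Of 54 proteasome genes listed, 45 were tested, and 43 had positive differences (95.56%, against 49.6% of all genes). Without overlap, 6 were higher (13.3%, against 6.12%) and 0 lower (against 6.91%). The median was 0.14. Without 6-month replicate 1, 15 were higher (33.3%, against 13.2%), 0 lower (against 16.1%), and the median was 0.18. The regulatory subunit gene psmd8 had 54.4, 53.3 and 47.7 FPKM at 12 months and 38.4, 41.8 and 45.2 FPKM at 6 months (0.31). The beta subunit gene psmb12 had 20.7, 21.3 and 42.2 FPKM at 12 months and 14.4, 13.8 and 4.52 FPKM at 6 months (1.35). It was also listed among the antigen presentation genes. Of 57 chaperone genes tested, 9 were lower (15.8%, against 6.91%) and 2 higher (3.51%, against 6.12%) without overlap, with a median of -0.09. With 6-month replicate 1 left out, 15 were lower (26.3%, against 16.1%) and 7 higher (12.3%, against 13.2%), and the median was -0.04. The small heat-shock gene hspb11 had 1676, 1587 and 1826 FPKM at 12 months and 2538, 3093 and 2579 FPKM at 6 months (-0.69). Of 64 cytosolic ribosomal protein genes tested, 51 had negative differences with a median of -0.06. Without overlap, 3 were higher (4.69%, against 6.12%) and 2 lower (3.13%, against 6.91%), neither share above that of all genes. When 6-month replicate 1 was left out, 5 were higher (7.81%, against 13.2%) and 30 lower (46.9%, against 16.1%), and the median was -0.16.

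Medians of immune genes differed with the library left out, 6-month replicate 1 or 12-month replicate 3. Of 96 interferon-related genes listed, 53 were tested, 7 were higher (13.2%, against 6.12%) and 2 lower (3.77%, against 6.91%) without overlap, with a median of 0.24. Over the 5 libraries without 6-month replicate 1, 23 were higher (43.4%, against 13.2%) and 2 lower (3.77%, against 16.1%), and the median was 0.45. Without 12-month replicate 3 it was 0.14. The cytosolic RNA sensor gene ifih1 had 6.26, 8.18 and 7.67 FPKM at 12 months and 5.23, 5.53 and 4.73 FPKM at 6 months (0.44). The antiviral effector gene mxa had 5.61, 6.35 and 3.87 FPKM at 12 months and 3.34, 1.11 and 0.762 FPKM at 6 months (1.29). Both were separate even with replicate 1, the highest 6-month library for mxa. The fish-specific interferon-induced gene gig2p was separate too, at 4.25, 5.38 and 5.75 FPKM at 12 months and 2.62, 2.80 and 2.68 FPKM at 6 months (0.72).

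For the 46 tested of 79 myeloid genes, which mark macrophages and granulocytes, the median difference was 0.08, and 2 were higher without overlap (4.35%, against 6.12%). After removal of 6-month replicate 1 the median was 0.55 and 25 were higher (54.3%, against 13.2%). Without 12-month replicate 3 the median was -0.03, with 21 of 46 differences positive. The 26 tested T and natural killer cell genes had a median of -0.03, which was 0.23 without 6-month replicate 1 and -0.26 without 12-month replicate 3. Their summed level was 2546, 2652 and 2320 FPKM in 12-month hearts, against 3535, 1798 and 1608 FPKM in 6-month hearts. The macrophage gene mpeg1.1 had 31.9, 19.8 and 66.7 FPKM at 12 months and 91.3, 27.5 and 26 FPKM at 6 months. The lysozyme gene lyz had 133, 316 and 119 FPKM at 12 months and 76.3, 12.8 and 10.7 FPKM at 6 months (2.89 ± 0.91, limma adjusted p = 0.318). It was separate in all libraries, with 6-month replicate 1 nearest to the 12-month range.

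Hepatocyte genes, which a heart should lack, were uneven between libraries of one age. The 54 tested of 95 summed to 269, 1985 and 198 FPKM at 12 months and 1124, 212 and 189 FPKM at 6 months, high in 12-month replicate 2 and 6-month replicate 1. The liver fatty acid binding protein gene fabp10a had 5.87, 258 and 15.7 FPKM at 12 months and 63.2, 2.30 and 7.51 FPKM at 6 months. None of these 54 was separate between the ages (against 6.12% higher and 6.91% lower of all genes), and their median was 0.48. It was 1.02 without 6-month replicate 1 and -0.58 without 12-month replicate 2, so that its sign rested on 1 library. The yolk precursor gene vtg2, made in the liver of females, had 3.22, 0.727 and 2.09 FPKM at 12 months and 214, 1.71 and 1.2 FPKM at 6 months. The part of these transcripts in the values of 6-month replicate 1 was not tested.

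Of the 22 tested fibroblast and epicardial genes, 1 was higher (4.55%, against 6.12%) and 2 were lower (9.09%, against 6.91%) without overlap, with a median of 0.10. Without 6-month replicate 1, 6 were higher (27.3%, against 13.2%) and 2 lower (9.09%, against 16.1%), and the median was 0.29. The members with the smallest p were lower, namely twist1a (-0.86), pdgfra (-0.55) and lum (-1.04), of which only lum was separate. In the list as a whole 15 differences were positive and 7 negative, and the member higher without overlap was sema3d (0.62). Outside this list, the matrix cross-linking gene loxl2a had 58.7, 68.5 and 33.7 FPKM at 12 months and 35.3, 21.8 and 11.4 FPKM at 6 months (1.27). Its 12-month replicate 3 lay just below 6-month replicate 1. Of the 64 matrix genes tested, 3 were higher (4.69%, against 6.12%) and 7 lower (10.9%, against 6.91%) without overlap, with a median of 0.006. Without 6-month replicate 1, 15 were higher (23.4%, against 13.2%) and 15 lower (23.4%, against 16.1%), and the median was 0.01. Of 72 cell cycle genes tested, 5 were higher (6.94%, against 6.12%) and 2 lower (2.78%, against 6.91%) without overlap, with a median of 0.02. For these limma gave 0 with a p under 0.05 before adjustment (against 4.62% higher and 5.23% lower of all genes). With 6-month replicate 1 left out, 17 were higher (23.6%, against 13.2%) and 3 lower (4.17%, against 16.1%), 53 of 72 differences were positive and the median was 0.18. Of 383 long noncoding genes, limma and limma voom called 0. Before adjustment, p was under 0.05 for 25 higher (against 4.62% of all genes) and 18 lower (against 5.23%). Without overlap, 21 were higher (5.48%, against 6.12%) and 20 lower (5.22%, against 6.91%), neither share above that of all genes. Without 12-month replicate 3, 1 of them passed (against 0.358% of all genes).

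**Figure D4:**
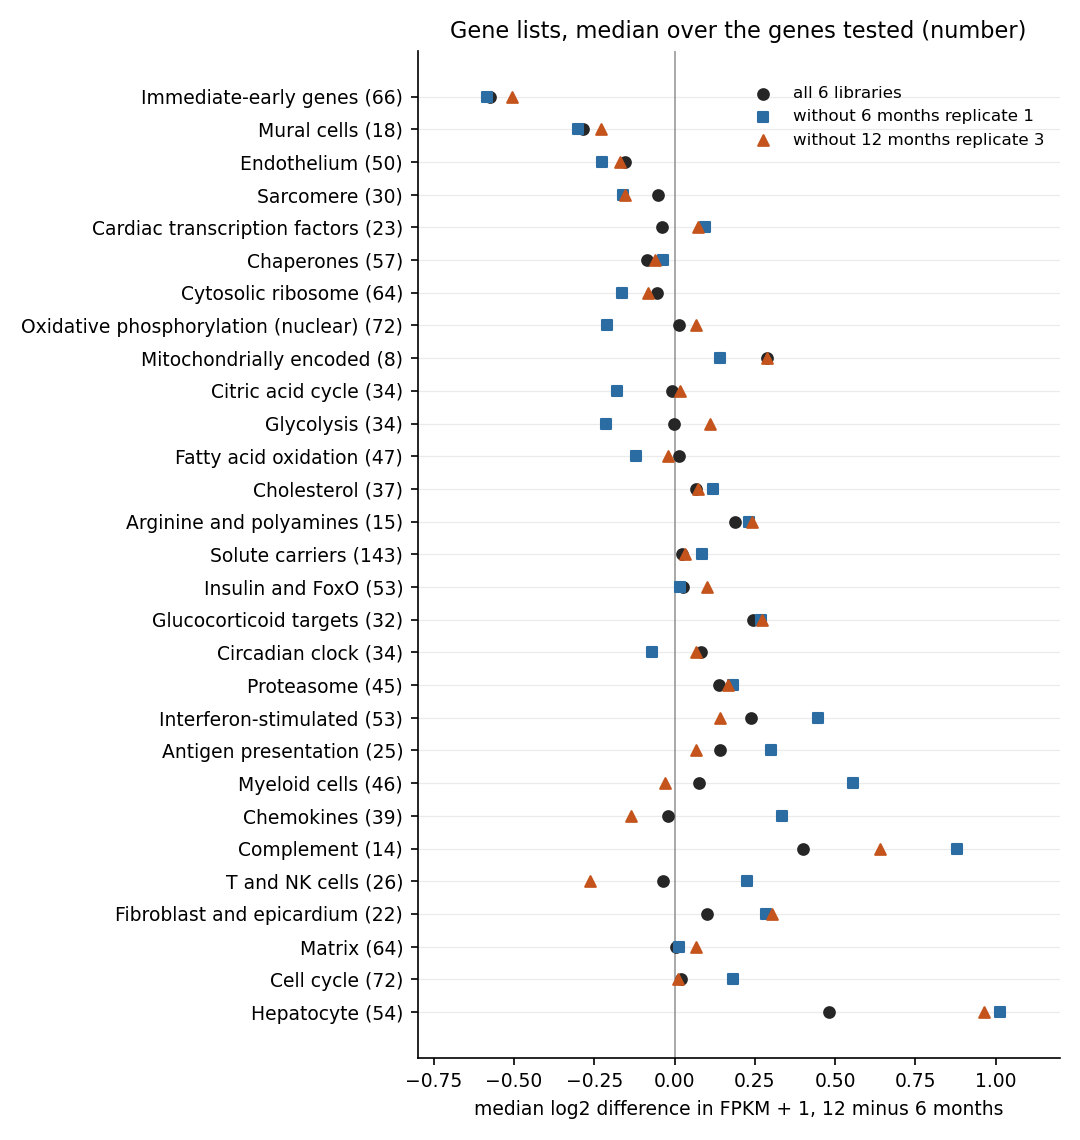
Median log2 difference in FPKM + 1 (12 months minus 6 months, x axis) over the tested genes of 29 gene families (y axis), with all 6 libraries, without replicate 1 of 6 months and without replicate 3 of 12 months. Immediate-early (-0.57, -0.58 and -0.51), mural, endothelial, sarcomere, chaperone and cytosolic ribosome families lie left of 0 under each choice. Hepatocyte, myeloid and oxidative phosphorylation families shift when replicate 1 of 6 months is left out.

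**Figure D5:**
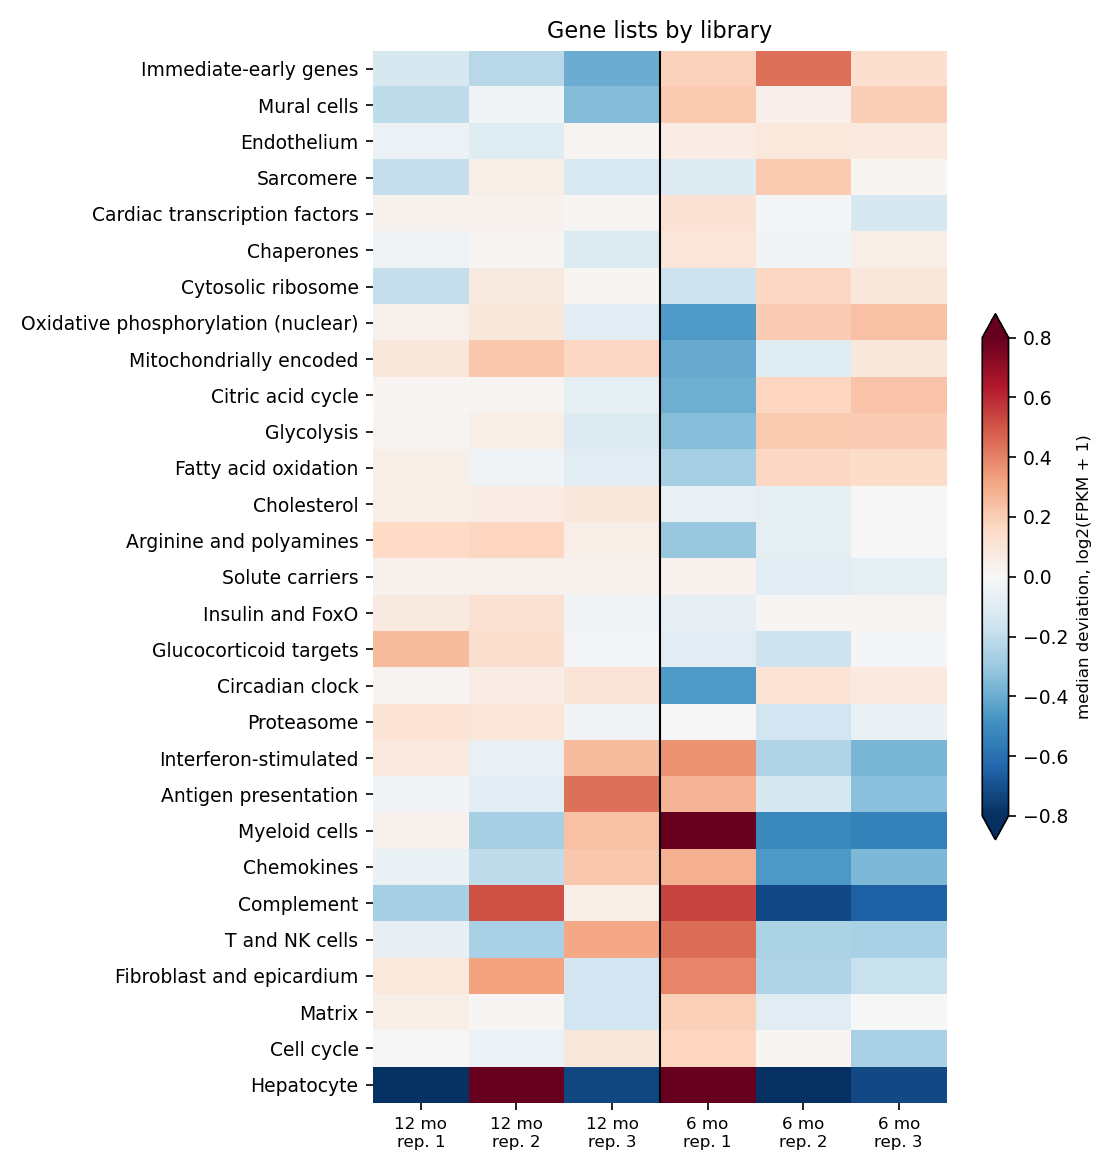
Median deviation of each gene family (rows) from its mean over the 6 libraries, in log2(FPKM + 1), for each library (columns, 12 months left of 6 months), on a colour scale limited to -0.8 to 0.8. Replicate 1 of 6 months is low for oxidative phosphorylation genes (-0.45) and high for myeloid (1.03) and hepatocyte genes (0.91), and replicate 2 of 12 months is high for hepatocyte genes (2.2).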

How the data were processed

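RNA was taken from dissected zebrafish hearts and sequenced on an Illumina instrument, per the labels. The authors deposited gene levels as FPKM, 1 table per age. CASAVA 1.8, HISAT2 2.0.5 and the genome build GRCz11 are named in the submitters' processing notes, while the counting tool, annotation and strand setting were not given in the sources used here, so reads of a gene and its antisense partner cannot be told apart. FPKM values multiplied by gene length gave whole reads for 100% of values, within 0.01 read. The library size implied by the values was not the number of reads in genes. It was 1.05e+07 against 9343585 reads in 6-month replicate 1, and 8.30e+06 against 9006181 in 6-month replicate 2. The ratio of implied size to median-ratio size factor ranged over 0.988% of its mean, so the deposited values were already close to that scaling. All value columns were used.

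From these values, log2(FPKM + 1) was modelled by limma 3.58.1 (R 4.3.3; moderated variances with a trend), with 1 mean per age over all 12 libraries (8 residual degrees of freedom), the contrast 12 months minus 6 months, two-sided tests and Benjamini-Hochberg adjustment over 16202 genes with a mean of at least 1 FPKM. The threshold was an adjusted p of 0.05. A difference on this scale understates the change of low genes. Tables and figures were made with Python 3.11.15, numpy 2.4.6, pandas 2.3.3 and matplotlib 3.10.9. The fit was tested on simulated data in which each gene had the same spread in every library. No simulated library stood apart, so that test gives no information on the effect of such libraries.

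The 63 gene lists held 4306 symbols, of which 3962 matched by name and 108 by synonym, 236 did not match, and 5 doubtful synonym matches were dropped. The lists are described by counts and medians, not tested as sets. The comparison and the lists were chosen with earlier results of these data known. Genes named are those that passed without overlap between ages, with all libraries or without 6-month replicate 1, up to 5 per list with the smallest p, and defining markers; other named genes were chosen after their values were seen. Depth was 9006181 to 11145869 reads in genes, and replication limits precision. Alternatives were each library left out, other filters, pseudocounts, scalings, a replicate block, array weights and limma voom on the recovered reads.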

Additional observations from a re-analysis of the deposited data

How the results depend on the processing

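The 3 calls (1 higher, 2 lower) rested on the spread shared by all 12 libraries. With only the 6 libraries, only the 5 libraries without 6-month replicate 1 (chosen after seeing the data), no filter, an equal sum per library, or mitochondrial and haemoglobin genes removed, limma called 0 genes (0 higher, 0 lower), with 1210, 1770, 2769, 1468 and 1462 genes at an unadjusted p under 0.05. Leaving out 1 library at a time gave 0 to 58 calls, 0 to 38 higher and 0 to 20 lower: 0 without 6-month replicate 2 or 3 or 12-month replicate 1 or 2, 1 (has1) without 6-month replicate 1, and 58 without 12-month replicate 3, the 12-month library most like 6 months. A mean of at least 5 FPKM left 1 call (0 higher, 1 lower), a pseudocount of 0.1 gave 3 (0 higher), leaving out unnamed loci gave 2 (0 higher), array weights gave 19 (11 higher, 8 lower), and limma voom gave 2 (1 higher, 1 lower). Median-ratio scaling and quantile normalization gave the same 3 calls. The deposited values were already close to median-ratio scaling, so that alternative nearly repeated the main fit. No trend gave 3 calls, of which 2 were shared with the main fit. The cause of these changes was not tested, beyond fewer samples or genes.

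Same-numbered libraries did not deviate together (correlations 0.0328, -0.0985 and -0.0963), and the replicate block gave 0 calls (0 higher, 0 lower), with 1501 genes at an unadjusted p under 0.05. No alternative turned the direction of any of the 62 genes followed. Named genes were chosen in part by their values in these data, so a kept direction was favoured in advance. Named genes outside these 62 did turn, among them ckma, from 0.20 with all libraries to -0.53 without 6-month replicate 1. By the values given above, gapdh, mpeg1.1, kdrl and vtg2 also turned without that library. In the same way tagln turned without 12-month replicate 3, and fabp10a without 12-month replicate 2. The adjusted p ranged over 0.0234 to 0.270 for lmod1b, 0.0248 to 0.270 for zpld1b and 0.0199 to 0.270 for the unnamed locus on chromosome 1. The immediate-early median stayed between -0.61 and -0.46 and the mural median between -0.42 and -0.16 over the alternatives run, whereas list medians kept their sign for 37 of 63 lists without 6-month replicate 1 and 48 of 63 without 12-month replicate 3. An equal sum per library moved the median of all genes to -0.03.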
